A study of Mus musculus with 7 samples.

Results

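Chromatin modification genes encode the proteins that add, remove and read chemical marks on histones or move nucleosomes along DNA. They were defined here by annotation. A gene belonged to the set if a probe set of the deposited annotated table carried the exact Gene Ontology process entry chromatin modification and none of the entries DNA replication, mitosis or chromosome segregation. The rule took 148 probe sets and gave 111 genes of 18142 measured, each represented by the probe set that was brightest on average across the 7 libraries. That mean is the only measured value the rule used. The second requirement left out 4 genes, Kat7, Rbbp4, Rbbp7 and Ruvbl1.

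Lung eosinophils of inbred BALB/c mice were isolated by flow cytometric sorting. The lungs had been challenged with saline (4 libraries) or with OVA, the usual short name for ovalbumin, an egg white allergen (3 libraries). The labels give no age, dose, schedule or genotype. Whether each library had its own mouse or a pool is not stated either, and the p-values below therefore cover only the spread between these 7 libraries, which may be technical. RNA was amplified and hybridised to mouse gene 1.0 ST arrays, 1 array for each library. Levels below are log2 values after robust multi-array averaging (RMA), libraries are named saline 1 to 4 and OVA 1 to 3, and each difference is the OVA mean less the saline mean, given with its standard error (SE).

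Histones are marked by writers, such as acetyltransferases and methyltransferases, and the marks are taken off by erasers, such as deacetylases and demethylases. Acetylation generally goes with open chromatin, whereas Polycomb complexes and heterochromatin proteins keep genes silent. Remodellers use ATP to slide or evict nucleosomes, and corepressor complexes bring deacetylases to target genes. Mature granulocytes have condensed, lobed nuclei and do not normally divide, while eosinophils in allergic tissue still change their transcription.

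All measured eosinophil markers lay above the negative control median of at least 1 library, among them Siglecf and Ccr3. Across all genes, libraries correlated at 0.9738 to 0.9898 within saline, at 0.9904 to 0.9936 within OVA and at 0.9556 to 0.9786 between groups. Each library's negative control median was taken over 5222 probe sets. It read 5.94, 5.95, 5.86 and 5.88 for saline 1 to 4 and 6.04, 6.05 and 6.17 for OVA 1 to 3. The median over libraries was 5.95. This background was thus brighter in every OVA library than in every saline library. How far that offset enters the differences below, above all those of dim genes, was not tested. Of 14 eosinophil markers 5 rose and 4 fell. Of the alveolar macrophage markers, 9 of 16 rose and 1 fell in OVA, and the log2 of their summed signal was 12.42 to 12.60 in saline and 13.82 to 14.17 in OVA. Those that rose were Chil3 (6.20), Car4 (5.36), Ctsk (2.92), Itgax (2.07), Mrc1 (2.06), Pparg (1.54), Lpl (1.48) and Fabp5 (0.91), given as differences, and Atp6v0d2, at a mean of 4.98 in saline and 7.26 in OVA. The saline means of Mrc1 and Atp6v0d2 lay under the negative control median, and Ear1, also an eosinophil marker, fell. Not called were Marco (-0.19), Siglec1 (-0.24), Krt79 (-0.11), Cidec (-0.30), Plet1 (0.63) and Fabp4 (0.42). Of the list, only Fabp4 lay below the negative control median in every library. Of 19 markers of dividing cells, 4 rose (Top2a, Mcm4, Rrm1 and Tyms) and 0 fell, and their summed signal was 11.40 to 11.55 in saline and 11.72 to 11.85 in OVA; Ccnb1, Cdk1 and Bub1 lay below the negative control median in every library. Elsewhere, 3 of 10 neutrophil markers (Ltf, Ngp and Lcn2), 2 of 10 epithelial markers (Sftpc and Sftpa1) and 1 of 10 T cell markers (Cd2) rose, while 0 markers of B cells, dendritic cells, mast cells and basophils, or endothelium and fibroblasts were called by limma. The part of other or dividing cells in the results below was not tested.

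In the eosinophils sorted from OVA lungs, 13 chromatin modification genes had higher normalized levels than in saline, and 0 genes of the set were called lower. The comparison asks how the allergen challenge changes the transcripts of these cells. By limma, with Benjamini-Hochberg adjustment over all 18142 genes and calls at an adjusted p under 0.05, 13 of 111 members were higher (11.7%), against 5.31% of all genes, and 0 were lower, against 1.17% of all genes. At an unadjusted p under 0.05, 40 members were higher and 1 was lower, against 13% and 7.83% of all genes. In sorted cells measured in bulk, fewer cells of a type and less RNA in each cell cannot be told apart.

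Most of these genes had signal, with 106 of 111 members above the negative control median on average (95.5%, against 70.7% of all genes), and the share of called genes depended on level. Among the 5004 genes whose mean lay between the quartiles of the members, 7.04 and 9.06, 10.4% were called higher and 1.66% lower. The share of all 111 members that was called higher, 11.7%, lay near that figure. Within the same range of levels, 10 of 55 members (18.2%) were called higher and 0 lower. At an unadjusted p under 0.05, 22 of these 55 were higher and 1 was lower, against 24.6% and 6.45% of the genes in that range.

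The difference was positive for 81 members and negative for 30. Its median was 0.15, with quartiles of -0.02 and 0.44, while the median was -0.07 over all genes and 0.09 over genes in the members' range of levels. In 38 members every OVA library lay above every saline library (34.2%, against 11% of all genes and 19.9% of genes in that range). In 2 members, Kdm4a and Smarcd3, every OVA library lay below every saline library (1.8%, against 8.6% of all genes and 5.66% in that range).

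**Figure D1:**
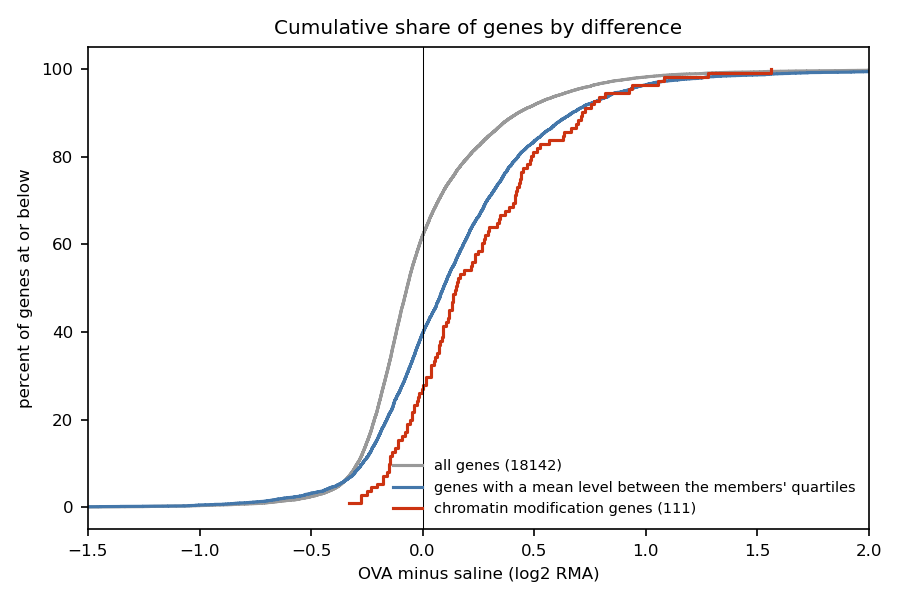
Cumulative percent of genes (vertical axis) by the OVA minus saline difference in log2 RMA (horizontal axis) for all 18142 genes, for the 5004 genes with a mean level between the members' quartiles, and for the 111 chromatin modification genes. The members' curve lies to the right of the others through its middle, with a median of 0.15 against -0.07 and 0.09.

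**Figure D2:**
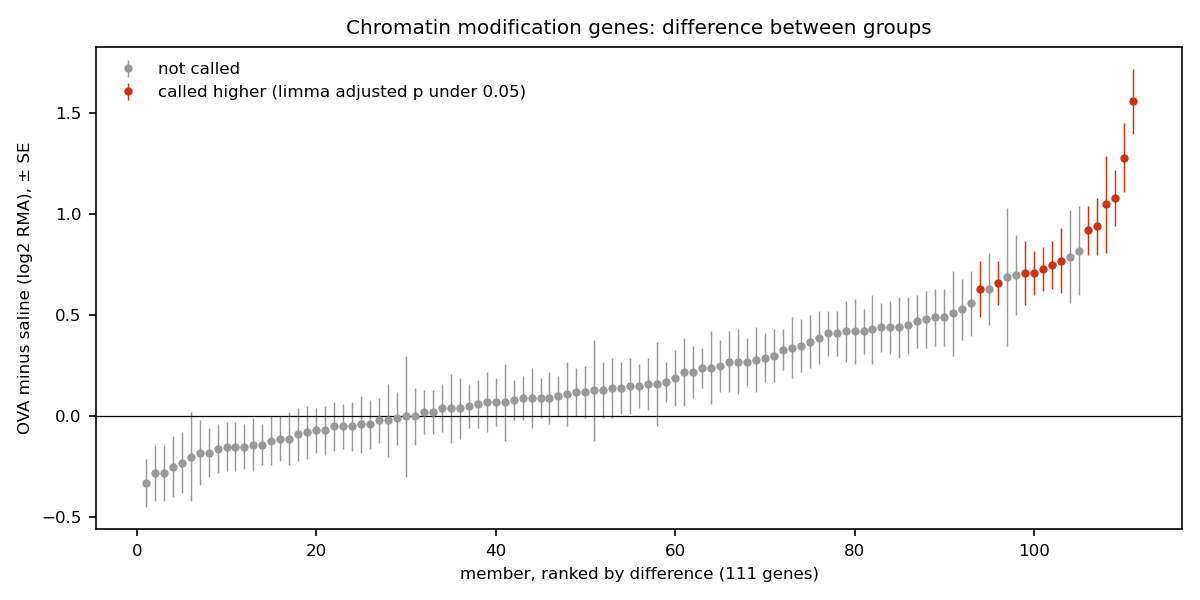
OVA minus saline difference (log2 RMA, vertical axis, bars ± SE) of the 111 members ranked by size (horizontal axis), with the 13 called genes in red. Differences run from -0.33 to 1.56, and all called genes lie above 0.

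Among called genes, the rise was at least 2-fold in 4 of 111 members. The same held for 321 of all 18142 genes and for 174 of the 5004 genes in the members' range of levels. Bcor encodes a corepressor that joins the transcriptional repressor BCL6 and a Polycomb complex. It read 7.08, 6.70, 7.26 and 7.36 in saline 1 to 4 and 8.71, 8.59 and 8.68 in OVA 1 to 3, so the groups lay far apart and the OVA libraries were close together. The difference was 1.56 (SE 0.16, limma adjusted p = 0.000551).

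Asf1a, a histone chaperone that hands histones H3 and H4 to assembly factors, read 6.85, 7.04, 7.01 and 7.01 in saline and 7.96, 8.12 and 8.69 in OVA. The groups did not overlap, and OVA 3 was the highest. Its difference was 1.28 (SE 0.17, limma adjusted p = 0.00227). The related chaperone gene Asf1b, which is linked to dividing cells, was not called (-0.23).

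Rbl1, which encodes the retinoblastoma relative p107, read 5.73, 5.36, 5.55 and 5.52 in saline and 6.36, 6.81 and 6.70 in OVA. Its groups did not overlap, and its 4 saline values were dimmer than the typical negative control (5.95). The difference was 1.08 (SE 0.14, limma adjusted p = 0.00211), and with saline this dim its size is uncertain. Hdac2, a class I histone deacetylase, read 8.28, 7.86, 8.70 and 9.04 in saline and 9.44, 9.60 and 9.53 in OVA. Its saline libraries were spread over 1.18 while the OVA libraries lay together. The difference was 1.05 (SE 0.24, limma adjusted p = 0.032), and the limma call was lost on leaving out OVA 1, OVA 2, OVA 3 or saline 1 (adjusted p = 0.0881, 0.129, 0.137 and 0.0878) or after median centring (0.0591).

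The sequences upstream of these 4 genes are shown because they are the members with the largest rise. Each is the 250 bases before the annotated transcription start, 5′ to 3′ on the coding strand, from RefSeq on GRCm38.p6: chrX:12160347-12160596 (minus strand), chr10:53596711-53596960 (plus), chr2:157204535-157204784 (minus) and chr10:36974294-36974543 (plus). Capitals mark matches on either strand to the GC box GGGCGG, the CCAAT box or the E2F motif TTTCGCGC, and adjoining matches run together.
Bcor: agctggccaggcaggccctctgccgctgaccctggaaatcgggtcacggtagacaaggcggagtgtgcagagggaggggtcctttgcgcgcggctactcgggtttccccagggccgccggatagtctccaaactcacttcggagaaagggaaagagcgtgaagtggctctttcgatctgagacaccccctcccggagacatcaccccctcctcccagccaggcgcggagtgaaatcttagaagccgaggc
Asf1a: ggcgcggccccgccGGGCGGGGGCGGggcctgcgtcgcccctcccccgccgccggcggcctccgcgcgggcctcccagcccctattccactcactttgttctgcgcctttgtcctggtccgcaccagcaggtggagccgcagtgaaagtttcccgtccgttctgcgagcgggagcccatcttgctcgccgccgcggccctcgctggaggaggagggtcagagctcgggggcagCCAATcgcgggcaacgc
Rbl1: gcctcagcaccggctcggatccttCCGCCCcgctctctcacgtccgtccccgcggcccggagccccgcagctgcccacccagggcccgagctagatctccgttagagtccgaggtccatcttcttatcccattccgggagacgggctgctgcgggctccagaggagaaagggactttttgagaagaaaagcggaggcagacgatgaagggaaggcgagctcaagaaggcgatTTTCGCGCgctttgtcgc
Hdac2: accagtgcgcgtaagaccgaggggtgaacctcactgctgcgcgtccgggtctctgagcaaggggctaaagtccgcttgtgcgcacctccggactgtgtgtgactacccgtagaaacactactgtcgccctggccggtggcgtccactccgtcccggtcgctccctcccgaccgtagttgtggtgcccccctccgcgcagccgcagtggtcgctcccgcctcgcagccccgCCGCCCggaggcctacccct

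Asf1a held GC boxes at -236 and -230 and a CCAAT box at -17 from the start, counted to the first base of the match. Rbl1 held a GC box at -226 and the E2F motif at -18, and Hdac2 a GC box at -20. In the window of 250 bases before to 50 after the start, Bcor matched none of the motifs searched, which were these 3, the E-box CACGTG, the ETS motif CCGGAAGT, the cyclic AMP element TGACGTCA and the hypoxia response core ACGTGC, which overlaps the E-box in part. A promoter was found for 89 of 111 members and for 11 of the 13 called. The GC box was present in 10 of these 11 promoters, in 71.9% of member promoters and in 51.2% of the promoters of all genes. The E2F motif was in 1 of the 11, in 2.25% of members and in 0.486% of all genes, and the CCAAT box in 6 of the 11, 47.2% and 38.5%. E-box, ETS, cyclic AMP and hypoxia motifs matched in 0 of the 11, while 8.53%, 5.78%, 2.53% and 6.9% of all promoters held them. With motifs this rare, 11 promoters are too few to show a lower share. Member promoters had a median of 22 CpG in 300 bases, against 16 for all genes. The 11 called promoters had a median of 29 CpG, and members not called had 21.5. Median GC content was 65.7% in the called, 61% in members not called and 57.7% in all genes. The part of base composition in the GC box shares was not tested.

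**Figure D3:**
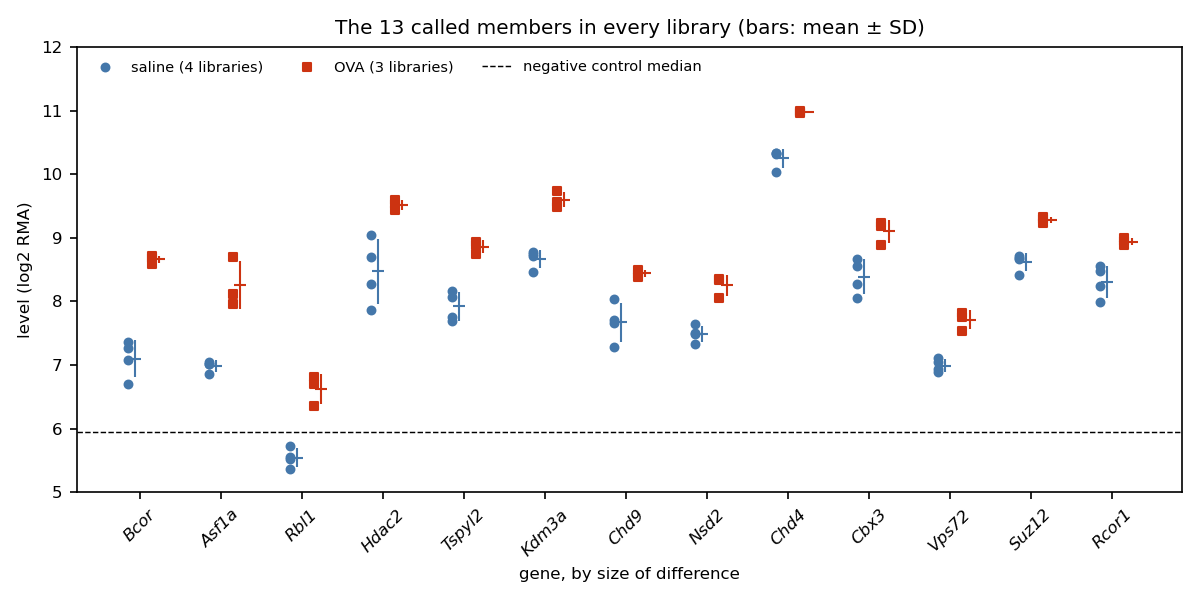
Level (log2 RMA, vertical axis) of the 13 called members in each of the 4 saline (blue circles) and 3 OVA (red squares) libraries, with mean ± SD beside the points; the dashed line is the negative control median of 5.95. No gene's groups overlap, the saline points of Rbl1 lie under the line, and those of Hdac2 spread over 1.18.

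Members are grouped below by lists of roles, and a member on several lists was counted only under the first of them. Among the writers of acetylation, the enzymes themselves were not called. The 4 acetyltransferase genes differed by -0.02 to 0.19 (Kat5, Kat6a, Kat6b and Kat8). Kat6a, a MYST family enzyme, read 9.30, 8.96, 8.99 and 9.26 in saline and 9.09, 9.19 and 9.22 in OVA, wholly within the saline range. Of 15 subunits of acetyltransferase complexes, 1 rose and 0 fell, with a median difference of 0.22. Vps72, a histone H2A.Z binding subunit of the SRCAP and TIP60 complexes, read 7.11, 6.93, 6.89 and 7.04 in saline and 7.54, 7.82 and 7.76 in OVA. Its saline libraries were close together and lay wholly below OVA, with a difference of 0.71 (SE 0.11, limma adjusted p = 0.0059).

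The scaffold Trrap read 7.96, 7.51, 8.66 and 8.28 in saline and 7.93, 8.35 and 8.43 in OVA, so the groups overlapped. Morf4l1, a chromodomain subunit of the TIP60 complex, read 12.04, 12.14, 12.27 and 12.23 in saline and 12.24, 12.30 and 12.24 in OVA. Its groups overlapped, with a difference of 0.09, and neither it nor its relative Morf4l2 (-0.28) was called. Epc1, an enhancer of Polycomb homologue in the same complex, had a saline mean of 10.66 ± 0.10 (SD, n = 4) and an OVA mean of 10.62 ± 0.19 (SD, n = 3).

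Of 14 lysine methyltransferase genes, 1 rose and 0 fell, with a median difference of 0.20. Nsd2, a histone H3 methyltransferase of transcribed genes, read 7.64, 7.33, 7.49 and 7.51 in saline and 8.06, 8.33 and 8.35 in OVA. The lowest OVA value lay above the highest saline value, and the difference was 0.75 (SE 0.12, limma adjusted p = 0.00618). Its relative Nsd1 differed by 0.30, and Nsd3 read 10.07, 9.99, 10.14 and 10.33 in saline and 9.83, 10.01 and 10.10 in OVA. Neither was called, and the groups of Nsd3 overlapped. In Setdb1, Setdb2, Suv39h1, Kmt2c and Kmt5b the groups also did not overlap, with differences of 0.17 to 0.41, none of them past the test. Setdb2 was called without saline 2 (limma adjusted p = 0.0438) and after a second quantile normalization (0.027). Its saline mean of 5.90 lay under the negative control median, and the size of its difference is uncertain. The 3 genes of arginine modification were not called, and Padi4, which turns histone arginines into citrulline during extracellular trap formation, read 7.97, 8.08, 8.15 and 8.50 in saline and 7.40, 8.37 and 8.14 in OVA.

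Among the erasers, 1 of 11 deacetylase genes, Hdac2, rose and 0 fell, and the median difference was 0.02. Hdac1, the closest relative of Hdac2, read 10.00, 9.47, 9.80 and 9.93 in saline and 10.17, 10.37 and 10.34 in OVA. The groups did not overlap, but the difference of 0.49 (SE 0.14) was not called (limma adjusted p = 0.0746). Hdac1 was called with array weights (0.00994), a setting in which OVA 2 had by far the largest weight. Hdac3, the catalytic partner of the NCOR corepressors, differed by 0.41 (limma adjusted p = 0.0661) and was called after a second quantile normalization (0.0464) and with array weights (0.0359). The other members of this group, Hdac4 to Hdac11, differed by -0.28 to 0.12. Hdac9 lay under the negative control median on average (5.50).

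Lysine demethylases had 1 of 13 members higher and 0 lower, with a median difference of 0.08. Kdm3a, a demethylase of a repressive histone H3 mark whose gene responds to low oxygen, read 8.71, 8.78, 8.46 and 8.74 in saline and 9.73, 9.57 and 9.49 in OVA. Every OVA library exceeded every saline library by a wide margin, and the difference was 0.92 (SE 0.12, limma adjusted p = 0.00207). Its paralogue Kdm3b read 9.81, 9.53, 10.00 and 10.03 in saline and 9.86, 10.03 and 10.03 in OVA, with overlap between the groups.

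Kdm4 demethylases act on several histone lysines. Kdm4a read 8.47, 8.29, 8.43 and 8.71 in saline and 8.14, 8.09 and 8.20 in OVA, and its difference of -0.33 (SE 0.12), the most negative of all members, was not called (limma adjusted p = 0.149); it was called lower after a second quantile normalization (0.0115) and with array weights (0.0282). Kdm4c read 7.51, 7.97, 8.29 and 8.20 in saline and 8.47, 8.61 and 8.80 in OVA, a difference of 0.63 that was not called (limma adjusted p = 0.0804). It was called with array weights (0.0362), with the replicate number as a block (0.0203) and without saline 3 and 4 together (0.00862). Kdm1a and Kdm2a both differed by 0.44 (limma adjusted p = 0.0617 and 0.0802), and both were called without saline 1 (0.0372 and 0.0374). Kdm5d, a gene of the Y chromosome, lay near 5.02 and under the negative control median.

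Corepressor subunits that work with deacetylases had 3 of 11 members higher, Bcor, Chd4 and Rcor1, and 0 lower, with a median difference of 0.47. In 8 of the 11 the groups did not overlap and OVA was above. That held for 34.2% of all members, 11% of all genes and 19.9% of genes in the members' range of levels. Chd4, the ATPase of the NuRD complex, which joins remodelling with deacetylation, read 10.34, 10.03, 10.31 and 10.33 in saline and 10.96, 11.00 and 10.98 in OVA. The OVA libraries lay close together above all saline libraries, and the difference was 0.73 (SE 0.11, limma adjusted p = 0.0048).

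Rcor1 (CoREST), which links Kdm1a with Hdac1 and Hdac2, read 7.99, 8.24, 8.55 and 8.47 in saline and 8.88, 8.99 and 8.95 in OVA. The groups did not overlap, and the difference was 0.63 (SE 0.14, limma adjusted p = 0.0311). The call was lost on leaving out OVA 1, OVA 2, OVA 3 or saline 2 (0.0827, 0.134, 0.13 and 0.0579), after median centring (0.0535) or after a second quantile normalization (0.056). Tbl1xr1, Suds3, Phf21a, Emsy and Sap18 differed by 0.42 to 0.49 and were not called, with limma adjusted p of 0.0597 to 0.145; Suds3 and Phf21a were called without saline 4 (0.047 and 0.0495). Ncor1, the scaffold that activates Hdac3, differed by -0.11.

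Of 8 members counted with the Polycomb group 1 rose and 0 fell, with a median difference of 0.17. Also on that list were Bcor (1.56, called higher), counted with the corepressor subunits, and Kdm2b (0.08, not called), counted with the demethylases. Suz12, a core subunit of Polycomb repressive complex PRC2, read 8.68, 8.42, 8.72 and 8.66 in saline and 9.29, 9.32 and 9.24 in OVA. The groups were well separated, with a difference of 0.66 (SE 0.11, limma adjusted p = 0.00696). In the other complex, PRC1, the ubiquitin ligase gene Ring1 differed by -0.05 and the chromobox genes Cbx2, Cbx7 and Cbx8 by -0.25, 0.09 and 0.24, with none of these called. Bmi1 differed by 0.44 (limma adjusted p = 0.131) and was called without saline 4 (0.0286).

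Remodellers of the ISWI, CHD and related types had 1 of the 5 members counted here higher and 0 lower. Also on that list were Chd4 (0.73, called higher), counted with the corepressor subunits, and Ep400 (0.29, not called), counted with the acetyltransferase complex subunits. Chd9 read 7.28, 7.66, 8.03 and 7.71 in saline and 8.38, 8.43 and 8.50 in OVA. The spread within saline was wide and that within OVA narrow, and the difference was 0.77 (SE 0.16, limma adjusted p = 0.0225). The call was lost when OVA 1, OVA 2 or OVA 3 was left out (0.0694, 0.0966 and 0.115) and after a second quantile normalization (0.0521).

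Hltf, a SNF2 type ATPase, read 6.74, 6.95, 8.33 and 7.82 in saline and 7.99, 8.17 and 8.29 in OVA. Saline 1 and 2 lay far below the other libraries and saline 3 above all of them, so the difference of 0.69 (SE 0.34) was not called (limma adjusted p = 0.276). The ISWI ATPase gene Smarca1 lay under the negative control median (4.19 ± 0.17 in saline, n = 4), while Smarca5, the widely expressed relative, differed by 0.22.

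None of the 7 SWI/SNF subunits counted here was called, with differences of -0.14 to 0.70. Actl6a, also on that list, was counted with the acetyltransferase complex subunits (0.34, not called). Smarcc2, a core scaffold, read 8.92, 8.40, 9.14 and 9.34 in saline and 9.65, 9.59 and 9.70 in OVA. The groups did not overlap, the difference of 0.70 (SE 0.20) missed the threshold (limma adjusted p = 0.073), and it was called without saline 4 (0.025) and after a second quantile normalization (0.036). Smarce1, a DNA binding subunit, read 9.44, 9.62, 9.61 and 9.75 in saline and 9.56, 9.64 and 9.66 in OVA, inside the saline range.

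Counted as readers and heterochromatin proteins were 2 members, and both rose. Cbx2, also on that list, was counted with the Polycomb group (-0.25, not called). Cbx3 (HP1 gamma), which binds methylated histone H3, read 8.28, 8.05, 8.56 and 8.67 in saline and 8.89, 9.23 and 9.18 in OVA. Its difference was 0.71 (SE 0.16, limma adjusted p = 0.0334). The 3 probe sets of the gene differed by 0.57 to 0.75, all without overlap between groups, but they were annotated to 1 shared transcript and their separate values are uncertain. The call was lost on leaving out OVA 1, OVA 2, OVA 3 or saline 1 (0.053, 0.152, 0.155 and 0.0871), saline 1 and 2 together (0.0769) or after median centring (0.0617). Tspyl2, an X-linked protein of the nucleosome assembly family, read 7.76, 7.69, 8.07 and 8.16 in saline and 8.74, 8.89 and 8.94 in OVA. All OVA values lay above all saline values, and the difference was 0.94 (SE 0.14, limma adjusted p = 0.0043).

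The retinoblastoma family, pocket proteins that bring corepressors to E2F target genes, had 3 members, and 1, Rbl1, was called. In all 3 every OVA library lay above every saline library, as in 34.2% of all members and 11% of all genes. Rbl2 (p130), the member linked to resting cells, read 8.79, 8.80, 9.59 and 9.63 in saline and 10.10, 9.96 and 10.00 in OVA. Rb1 read 8.45, 8.85, 9.20 and 9.48 in saline and 9.63, 10.05 and 9.68 in OVA. In both genes saline 1 and 2 were the lowest libraries, and the differences of 0.82 (SE 0.22) and 0.79 (SE 0.23) were not called (limma adjusted p = 0.0641 and 0.0766). Rbl2 was called without saline 3 (0.0393) or saline 4 (0.024) and after a second quantile normalization (0.03), and Rb1 without saline 4 (0.0207).

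The remaining roles held few members and no call besides Asf1a. The ubiquitin ligase genes Rnf20 and Rnf40, which mark histone H2B, were not called. Rnf20 read 9.14, 9.44, 9.59 and 9.70 in saline and 9.36, 9.50 and 9.54 in OVA, with equal group means of 9.47, and Rnf40 differed by -0.18. Of the kinases, Tlk1 and Tlk2, which phosphorylate Asf1 proteins, differed by 0.56 and 0.35 without overlap between groups (limma adjusted p = 0.0783 and 0.181), and Tlk1 was called without saline 4 (0.0372) and after a second quantile normalization (0.0361). Tlk2 read 9.05, 9.15, 9.46 and 9.50 in saline and 9.59, 9.73 and 9.59 in OVA. The mitotic histone kinase gene Haspin read 5.85, 5.87, 6.54 and 7.02 in saline and 5.85, 6.54 and 6.57 in OVA, with equal group means of 6.32. The histone variant Macroh2a1, found in silent chromatin, read 8.33, 8.04, 8.29 and 8.48 in saline and 8.23, 8.46 and 8.60 in OVA. Its groups overlapped, and Macroh2a2 and the chaperone Hira differed by 0.16 and 0.10. Smarcal1, an annealing helicase, differed by 0.53 (limma adjusted p = 0.085) and was called without saline 1 (0.02), while Utp3, a nucleolar protein, read 10.45, 10.21, 10.67 and 10.67 in saline and 10.36, 10.69 and 10.67 in OVA.

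**Figure D4:**
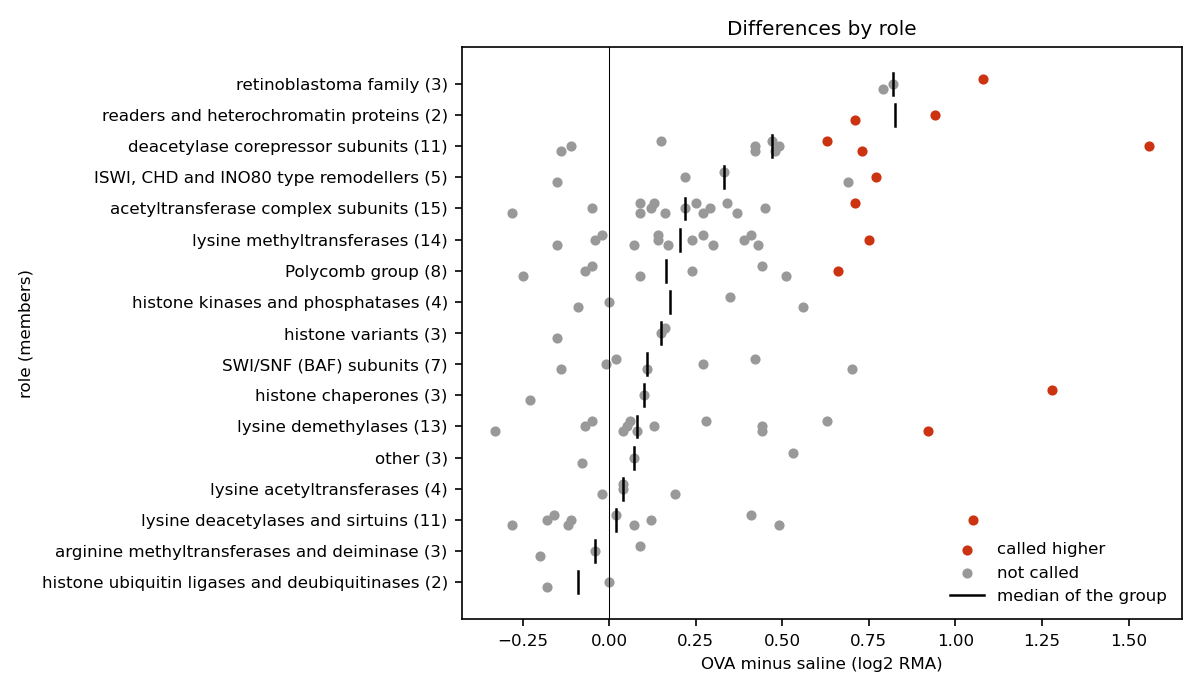
OVA minus saline difference (log2 RMA, horizontal axis) of each member, grouped by role (vertical axis, with the number of members), called genes in red and group medians as black lines. A member on several role lists is drawn only under the first. Corepressor subunits have a median of 0.47 and deacetylases one of 0.02, and no called gene lies below 0.

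Chd7, a CHD family remodeller, was the member with the most probe sets, 30. The one that represents the gene read 11.55, 11.56, 11.40 and 11.46 in saline and 11.89, 11.76 and 11.83 in OVA. The groups did not overlap, and the difference of 0.33 (SE 0.10) was not called (limma adjusted p = 0.0825), although it was after median centring (0.0453), with array weights (0.0318) and with a trended, robust prior (0.0464). Over the 30 probe sets the difference ran from -0.01 to 0.85 with a median of 0.42. It was positive in 29, and in 15 every OVA library lay above every saline library, while 0 showed the opposite. Probe sets of 1 gene read the same RNA and are not replicates.

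**Figure D5:**
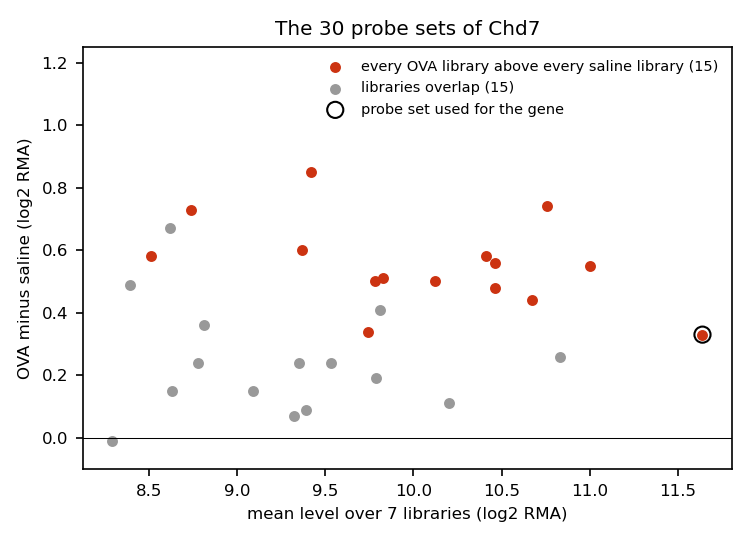
OVA minus saline difference (log2 RMA, vertical axis) of the 30 probe sets of Chd7 against their mean level over 7 libraries (log2 RMA, horizontal axis), with the 15 whose groups do not overlap in red and the probe set used for the gene circled. The 30 values run from -0.01 to 0.85, and the circled one, at 0.33, lies below their median of 0.42.

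In the other 5 members with several probe sets, all probe sets of a gene had a positive difference. The 2 probe sets of Hdac1 differed by 0.49 and 0.51, both without overlap between groups. Those of Tbl1xr1 differed by 0.42, without overlap, and 0.28, with overlap. The 4 of Morf4l1 ran from 0.02 to 0.15, at mean levels of 9.42 to 12.21, and the 2 of Trrap were 0.13 and 0.02. Some of these probe sets may also detect related copies of the gene, and their separate values are uncertain.

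The saline libraries differed among themselves in the level of the members. Saline 2 was the lowest of the 7 libraries in 41 of 111 members (36.9%), where 25.2% of the genes above the negative control median had their lowest value there. The median deviation of members from their own mean was -0.09, -0.19, -0.05 and -0.02 in saline 1 to 4 and 0.07, 0.12 and 0.18 in OVA 1 to 3. For the genes above the negative control median it stayed between -0.04 and 0.02. In 43 members (38.7%) saline 3 and 4 both lay above saline 1 and 2, and in 16 (14.4%) both lay below, against 30.5% and 25.7% of the genes above the negative control median. The widest saline ranges among members were those of Hltf (1.59), Hdac2 (1.18), Haspin (1.17), Trrap (1.15) and Rb1 (1.03). With saline 1 and 2 left out together, 15 members were called higher and 0 lower, of which 12 were also called with all libraries, and with saline 3 and 4 left out 31 were called higher and 0 lower, which included all 13.

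Other chromatin regulators were counted in the same fit. Of 381 further genes on 16 lists of chromatin enzymes and complexes, 41 rose (10.8%) and 2 fell (0.525%) by limma, beside 5.31% and 1.17% of all genes. The share higher lay near the 10.4% of genes between 7.04 and 9.06, a range that holds the median level of these 381 genes, 7.84. Their median difference was 0.13, and it was negative in 138 of them. Of the 43, 11 were called in each of 7 fits that left out 1 library, and without OVA 1, OVA 2 or OVA 3 the number of the 381 called higher was 21, 14 and 11. Those called throughout included Ruvbl2 (0.90), an ATPase shared by the INO80 and TIP60 complexes, Baz1b (0.70), a partner of Smarca5, and Kdm7a (0.89), a demethylase. Also among them were Nek6 (1.27), a kinase, Brms1l (1.26), a SIN3 complex subunit, Wdr5b (0.88), a relative of the methyltransferase subunit Wdr5, Pcgf3 (0.75), a PRC1 subunit, Anp32b (0.85), a histone chaperone, and Rnf168 (0.72), a ubiquitin ligase of the DNA damage response. Brms1l was at 5.12 in saline, dimmer than the typical negative control, and the size of its rise is uncertain.

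Partners of the called members were among them in part. Mtf2, an accessory subunit of the complex that holds Suz12, rose by 1.01 (limma adjusted p = 0.0102; 0.0627 without OVA 3), and Ezh2, its methyltransferase, by 0.71 (limma adjusted p = 0.0458; above the threshold without OVA 1, OVA 2, OVA 3, saline 1 or saline 3, at most 0.186). Rbbp7, a histone binding subunit of the same complex and of NuRD that the rule left out, rose by 0.63 (limma adjusted p = 0.00613), whereas Rbbp4, Kat7 and Ruvbl1, also left out, differed by 0.46, 0.38 and 0.46 and were not called. Cbx5 (HP1 alpha), a relative of Cbx3, rose from a saline level of 5.86, under the negative control median, so the size of its difference (1.10, limma adjusted p = 0.0161) is uncertain, with the call lost on leaving out OVA 1, OVA 2 or OVA 3 (0.0746, 0.0728 and 0.0519). The 2 genes that fell were Cdyl2, a chromodomain protein (-0.88, limma adjusted p = 0.025), and Dot1l, a histone H3 methyltransferase (-0.50, limma adjusted p = 0.0336), and neither was called without OVA 1 (0.0873 and 0.117) or on leaving out several other single libraries.

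Of the 13 called members, 9 were called in each of the 7 fits that left out 1 library: Bcor, Asf1a, Rbl1, Tspyl2, Kdm3a, Nsd2, Chd4, Vps72 and Suz12. Tested by limma's treat against a change of 1.5-fold, 1 member was called, Bcor (adjusted p = 0.0134).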

How the data were processed

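Per the submitters' processing notes, the authors deposited log2 expression values from RMA. No version is stated in the sources used here. The values have 2 decimals for 35557 probe sets on 7 arrays. Since RMA gives all arrays like distributions, a change common to most genes would be largely lost. Symbols and process entries came from a second deposited table, whose 7 value columns match no sample label by name and were not used. On inspection they held, to 2 decimals, the matrix's values with the columns in another order. Their names state no group, so which libraries are saline and which OVA, and with it every difference, rests on the sample labels of the matrix alone. Symbols were updated by accession, symbol or synonym through a RefSeq table (GRCm38.p6, names only), which renamed 31 of 111 members; probe sets with several symbols were left out. The 18142 genes, each by its probe set of highest mean, were fitted with limma 3.58.1 (R 4.3.3; lmFit, eBayes, group as the only term, no filter), 2-sided, with Benjamini-Hochberg adjustment, and checked on simulated data. No test of the member list was made. Genes named in the text are called members, the member of highest mean in each role, those of extreme level or saline range, up to 2 called genes of each role list outside the set, and a few singled out after their values were seen (other members described beside them, and genes that fell). Members and lists were chosen with earlier results of these data known; 10 members in no list received a role, or the role other, from their symbols. Alternatives were normalization, probe set, dim genes, weights, variance prior, left-out libraries, a replicate block and treat. Arrays have no counted depth, and their number limits the precision.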

Additional observations from a re-analysis of the deposited data

Results flagged for a closer look

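Among the 35 members picked by call, level or saline spread, 3 had 1 saline library that stood apart from the other 3 by Dixon's criterion. Chance meets this criterion in about 1 of 20 groups, so some such cases arise by chance alone. Asf1a read 6.85 in saline 1 against 7.01 to 7.04, and Chd4 read 10.03 in saline 2 against 10.31 to 10.34. Kdm5d read 5.21 in saline 3 against 4.98 to 5.01, under the negative control median. Both called genes, Asf1a and Chd4, were also called without that library.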

How the results depend on the processing

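With 13 members higher and 0 lower, the number higher was 31 with array weights, 31 without saline 3 and 4 together, 21 with the replicate block, 29 at an adjusted p under 0.1 (chosen after seeing the data), 1 by treat and 9 to 20 without 1 library, with 20 reached without saline 4. Array weights gave OVA 2 a weight of 5.02, against 0.412 to 1.41 in the other libraries, so the OVA mean there rests mostly on OVA 2. Those gained with array weights were Bmi1, Chd7, Hdac1, Hdac3, Ing2, Kdm1a, Kdm2a, Kdm4c, Phf21a, Rb1, Rbl2, Setd7, Setdb2, Smarcal1, Smarcc2, Suds3, Tbl1xr1 and Tlk1. Kdm4a alone was called lower (1) with array weights and after a second quantile normalization, and 0 members were in the other settings. Over all genes, 964 were higher and 213 lower; array weights gave 1650 higher and 676 lower, leaving out saline 3 and 4 gave 2191 and 984, treat gave 102 and 7, and leaving out 1 library gave 371 to 1221 higher and 67 to 266 lower. The number lower was 118 after median centring (781 higher), 512 after a second quantile normalization (929 higher) and 404 without saline 1 and 2. Of the members not called, Hdac3, Rbl2, Setdb2, Smarcc2 and Tlk1 were called higher after the second quantile normalization. The median difference of the members was 0.18 after median centring and 0.08 after a second quantile normalization. The replicate numbers were not taken as pairs: deviations of same-numbered libraries correlated at 0.106, -0.129 and 0.346, and the 21 members called with the replicate block, on replicates 1 to 3 of both groups, included all 13. The cause of these changes was not tested. The planned fit on the annotated table's columns was not run, since their names match no sample; on inspection they held the values of the matrix in another column order.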
